A study of Homo sapiens with 24 samples.

Results

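The genes examined here make, break down or bind hyaluronan. The 9 genes chosen by name were the hyaluronan synthases HAS1, HAS2 and HAS3, the hyaluronidases HYAL1, HYAL2 and HYAL3, the hyaluronan-depolymerising protein gene CEMIP (formerly KIAA1199), the receptor gene CD44 and UGDH, which encodes UDP-glucose 6-dehydrogenase. All array probes annotated to these genes were taken, which gave 15 of the 47323 probes and 7 of the 9 genes. HAS2 had 4 probes, HYAL2 and CD44 had 3 each, HAS3 had 2, and HYAL3, CEMIP and UGDH had 1 each, whereas HAS1 and HYAL1 had no named probe. The group was chosen because HAS3 was higher in knockout clones of HCT116 and HT1080, so the HAS3 values in that comparison are given as a description, with no test.

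The arrays were Illumina expression arrays of total RNA from cloned human cells, and the clones were labelled wild type or knockout for Rap1, the shelterin protein encoded by TERF2IP. The knockouts had been made with TALENs, engineered nucleases. In HCT116, a colorectal carcinoma line, the clones numbered 15, 20 and 23 were labelled wild type and those numbered 10, 21 and 28 knockout. In HT1080, a fibrosarcoma line, clones 2 and 9 were labelled wild type and clones 8 and 21 knockout, and every clone of these lines had 2 arrays. The retinal pigment epithelium line ARPE-19 had 1 array each of a wild-type clone (23), the uncloned parental cells and knockout clones 25 and 30. No treatment was given to any group per the labels, and each clone is a single isolate whose other differences from its line are unknown. The deposited values had been centred on each probe's median over the arrays of its own line. They are log values, taken as log2, and hold differences between clones of a line but no levels, so neither levels of different genes nor defining markers of the lines could be compared. Clone values are means of the 2 arrays, and the clone was the replicate.

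Hyaluronan is a long, unsulfated polysaccharide of the pericellular matrix, made at the plasma membrane by the HAS enzymes, which join UDP-glucuronic acid and UDP-N-acetylglucosamine and extrude the growing chain. UGDH makes the UDP-glucuronic acid. HYAL2, a membrane-anchored enzyme, and the lysosomal HYAL1 cut the polymer, CEMIP is needed for its depolymerisation in fibroblasts, and CD44 binds it at the cell surface. In tumours of epithelial and mesenchymal origin these genes are known for their link to cell adhesion, migration and invasion.

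TERF2IP, the targeted gene, had 1 probe and was read first. In HT1080 its clone values were 1.19 and 1.13 in wild-type clones 2 and 9, against -1.74 and -1.15 in knockout clones 8 and 21, with no overlap. In HCT116 they were 0.094, -0.27 and 1.33 in wild-type clones 15, 20 and 23 and -0.22, -0.53 and 0.028 in the clones labelled knockout (10, 21 and 28), so the genotypes overlapped and the HCT116 genotypes are given below as labelled. In ARPE-19 the values were 0.013 in clone 23 and -0.013 in parental cells, and 0.16 and -0.12 in knockout clones 25 and 30. TERF2IP thus did not separate the genotypes there. These are RNA values of 1 probe, so they do not settle whether a clone lacks Rap1 protein. Over all probes, the median difference of labelled knockout minus wild type was 0.056 in HCT116, -0.037 in HT1080 and 4.0e-05 in ARPE-19.

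The promoters of HAS3, CEMIP and CD44 are shown because these genes carry the values described at most length, and none of their probes overlapped between the genotypes of HCT116. Each is the 250 bases before the gene's start in RefSeq (GRCh38.p14, plus strand): chr16:69107290-69107539 for HAS3, chr15:80779120-80779369 for CEMIP and chr11:35138921-35139170 for CD44. Capitals mark matches to the motifs searched on both strands.
HAS3: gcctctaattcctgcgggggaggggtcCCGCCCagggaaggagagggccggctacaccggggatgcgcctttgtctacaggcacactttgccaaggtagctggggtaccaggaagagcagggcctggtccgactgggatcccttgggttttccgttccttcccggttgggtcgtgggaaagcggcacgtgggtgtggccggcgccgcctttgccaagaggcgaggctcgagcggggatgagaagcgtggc
CEMIP: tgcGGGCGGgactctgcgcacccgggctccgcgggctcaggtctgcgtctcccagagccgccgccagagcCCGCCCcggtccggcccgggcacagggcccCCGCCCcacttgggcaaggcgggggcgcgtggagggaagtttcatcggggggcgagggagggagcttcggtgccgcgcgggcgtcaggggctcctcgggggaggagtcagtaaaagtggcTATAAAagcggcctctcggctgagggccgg
CD44: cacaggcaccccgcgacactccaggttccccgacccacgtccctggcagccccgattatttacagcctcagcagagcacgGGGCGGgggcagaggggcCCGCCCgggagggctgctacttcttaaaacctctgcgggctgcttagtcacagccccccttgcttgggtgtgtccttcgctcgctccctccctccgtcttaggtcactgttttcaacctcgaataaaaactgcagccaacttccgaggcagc
The motifs were the telomeric repeat TTAGGG, which Rap1's partner TERF2 binds, the GC box GGGCGG, the AP-1 site TGANTCA, the E-box CAGGTG, the CCAAT box CCAAT and the TATA box TATAAA. The GC box was matched once in HAS3, at 2 places in CD44 and at 3 in CEMIP, and 42.6% of all 35097 promoters of the table held it. CEMIP alone of the 3 held a TATA box, from 30 to 25 bases before the start, and 10.7% of all promoters did. No match overlapped another. The other motifs had no match in these windows, and they were held by 7.94% (telomeric repeat), 6.57% (AP-1 site), 17.5% (E-box) and 32.0% (CCAAT box) of all promoters. Matching letters are a description of the sequence only.

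HAS3, the synthase, was the member with the widest spread over HCT116 clones. On probe ILMN_1794501 the wild-type clones 15, 20 and 23 stood at -0.18, -0.72 and -1.33, and the clones labelled knockout 10, 21 and 28 at 1.84, 0.21 and 0.46. All 3 clones labelled knockout lay above all 3 wild-type clones, and the gap between wild-type clone 15 and knockout clone 21 was smaller than the range within either genotype. The difference of the means was 1.58 ± 0.40 (SE of the limma fit, n = 3 and 3 clones), a ratio of 3.00. The SD between clones was 0.58 among wild type and 0.88 among labelled knockout. On the other probe, ILMN_1668760, the same clones stood at -0.12, -0.34 and -0.70 and at 0.77, 0.20 and 0.20, a difference of 0.78 ± 0.18, and the order of the clones was nearly the same on both probes, with knockout clone 10 highest and wild-type clone 23 lowest. The Pearson correlation of the 2 probes over the 6 HCT116 clones was 0.99, both probes being read on the same arrays.

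In HT1080, probe ILMN_1794501 of HAS3 read -0.56 and -0.64 in wild-type clone 2, -0.33 and -0.42 in wild-type clone 9, 0.33 and 0.37 in knockout clone 8 and 0.66 and 0.70 in knockout clone 21. Every knockout array was above every wild-type array. The difference of the clone means was 1.00 ± 0.15 (SE, n = 2 and 2 clones), a ratio of 2.00. The second probe gave clone values of -0.25 and -0.053 in wild type against -0.018 and 0.080 in knockout, a difference of 0.18 ± 0.11, and its arrays overlapped between the genotypes. They read -0.019 and -0.48 in wild-type clone 2, 0.019 and -0.12 in wild-type clone 9, 0.076 and -0.11 in knockout clone 8 and 0.12 and 0.043 in knockout clone 21. The second probe thus gave the smaller difference in both lines. Both knockout groups lay wholly above wild type in both lines for 1.09% of all probes, the pattern for which HAS3 was chosen.

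**Figure D1:**
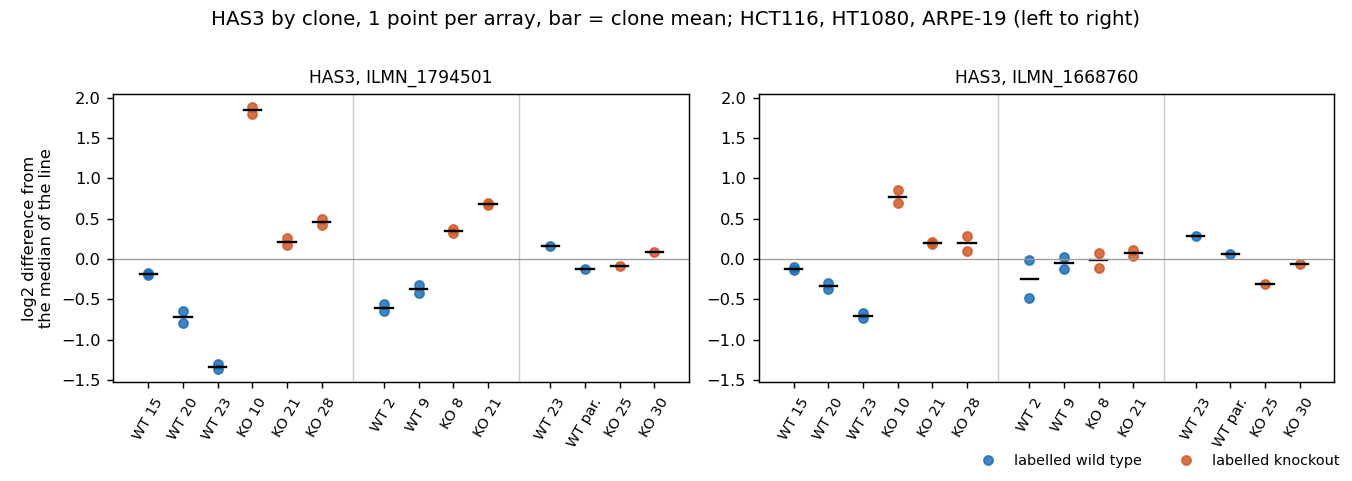
Value of each HAS3 probe (vertical axis, log2 difference from the median of the line) in each array (points) of each clone (horizontal axis), for HCT116, HT1080 and ARPE-19; bars are clone means and colours the labelled genotype. On ILMN_1794501 the labelled knockout clones lie above wild type in HCT116 (0.21 to 1.84 against -1.33 to -0.18) and HT1080 but not in ARPE-19, and on ILMN_1668760 the HT1080 clones lie close together.

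ARPE-19 had not been used in choosing HAS3. There ILMN_1794501 read 0.16 in clone 23 and -0.12 in parental cells, and -0.090 and 0.090 in knockout clones 25 and 30, a difference of -0.018 ± 0.13 (limma, adjusted p = 0.997, n = 2 and 2). ILMN_1668760 read 0.28 and 0.060 in wild type against -0.30 and -0.060 in knockout, a difference of -0.35 ± 0.13 that did not pass (limma, adjusted p = 0.765). On neither HAS3 probe did the knockout clones of ARPE-19 lie above the wild-type samples. None of the 15 probes passed in ARPE-19 (limma, adjusted p under 0.05), where 0.294% of all probes passed. Of the 15, 1 had an unadjusted p under 0.05, where 5.64% of all probes did. It was ILMN_1668760 of HAS3, lower in knockout. The differences of the 15 ran from -0.35 to 0.091, with 13 lower and 2 higher.

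HAS3 also differed among clones that share a labelled genotype. This comparison was not the one used to choose HAS3, but it read the same arrays. In HCT116, knockout clone 10 exceeded clone 21 by 1.63 and clone 28 by 1.38, and wild-type clone 15 exceeded clone 23 by 1.15 on ILMN_1794501. The SD between clones of a genotype was 0.74, against 0.063 between the 2 arrays of a clone. This passed the limma F-test over all probes (adjusted p = 1.22e-08), as did ILMN_1668760 (SD 0.31 against 0.077, adjusted p = 5.32e-04). In HT1080 the corresponding SDs for ILMN_1794501 were 0.20 and 0.047, and the test was not passed (adjusted p = 0.0615), although it was with only probes of 1 gene symbol tested (adjusted p = 0.0330). The 2 arrays of a clone may be technical replicates, so these tests compare single clones and not genotypes.

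CEMIP, which promotes hyaluronan depolymerisation, was lower in all HCT116 clones labelled knockout. Wild-type clones 15, 20 and 23 stood at 0.73, 0.22 and 0.47, and knockout clones 10, 21 and 28 at -0.69, -1.54 and -0.17 on its 1 probe, ILMN_1813704. The groups did not overlap, and clone 21 was the lowest. The difference was -1.28 ± 0.28 (SE, n = 3 and 3 clones), a ratio of 2.42, and did not pass over all probes (limma, adjusted p = 0.429). In HT1080 the pattern was set by a single clone: wild-type clone 9 read 2.30 and 2.47, while wild-type clone 2 read -0.25 and -0.17, knockout clone 8 -0.16 and -0.34, and knockout clone 21 0.25 and 0.16. Wild-type clone 9 thus exceeded wild-type clone 2 by 2.59, a ratio of 6.03, and the genotypes overlapped. The difference between genotypes was -1.11 ± 0.79 (limma, adjusted p = 0.864), -2.41 without wild-type clone 2 (limma, adjusted p = 0.00619) and 0.19 without wild-type clone 9. With 1 wild-type clone left, that clone is assumed to vary like the 2 knockout clones, which alone give the spread.

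Differences among clones of one genotype were far larger for CEMIP than differences between arrays. The SD between clones was 0.52 in HCT116 and 1.32 in HT1080, against 0.16 and 0.097 between arrays, and the F-test was passed in both lines (limma, adjusted p = 2.56e-05 and 5.70e-08). In HT1080 the adjusted p was 0.0833 on leaving out wild-type clone 2 and 0.0728 on leaving out clone 9, when only the 2 knockout clones remain to be compared. In ARPE-19 CEMIP read between -0.030 and 0.11 in all 4 arrays.

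HAS2, the synthase that makes long hyaluronan chains in fibroblasts, stood apart in the same HT1080 clone, on part of its probes. Probe ILMN_1792978 read 1.64 and 1.60 in wild-type clone 9, against -0.040 and -0.067 in wild-type clone 2, -0.038 and 0.11 in knockout clone 8 and -0.13 and 0.038 in knockout clone 21. Wild-type clones 9 and 2 differed by 1.67, a ratio of 3.19, and the F-test among clones of one genotype was passed (limma, adjusted p = 2.42e-06). It was no longer passed without either of these clones (adjusted p = 0.844 and 0.853). Probe ILMN_1700935 was also highest in wild-type clone 9, at 0.41 against 0.023 in clone 2, without passing (adjusted p = 0.107). The other 2 probes gave 0.0063 and -0.044 in that clone. The clone value of wild-type clone 9 in HT1080 was thus high on CEMIP and on 2 of 4 probes of HAS2, and it was low on HYAL3.

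The difference of HAS2 between genotypes ranged over its probes from 0.041 to 0.25 in HCT116 and from -0.79 to 0.0037 in HT1080. No HAS2 probe passed in either line (limma, adjusted p between 0.591 and 0.997). In HCT116, ILMN_1777562 had clones labelled knockout at 0.032, 0.15 and 0.050 above wild-type clones at -0.098, -0.10 and -0.31, and the other 3 probes overlapped. In HT1080, ILMN_1792978 gave -0.79 ± 0.51 with all clones, -1.63 without wild-type clone 2 (limma, adjusted p = 0.00487) and 0.048 without wild-type clone 9, the spread again coming from the knockout clones alone.

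**Figure D2:**
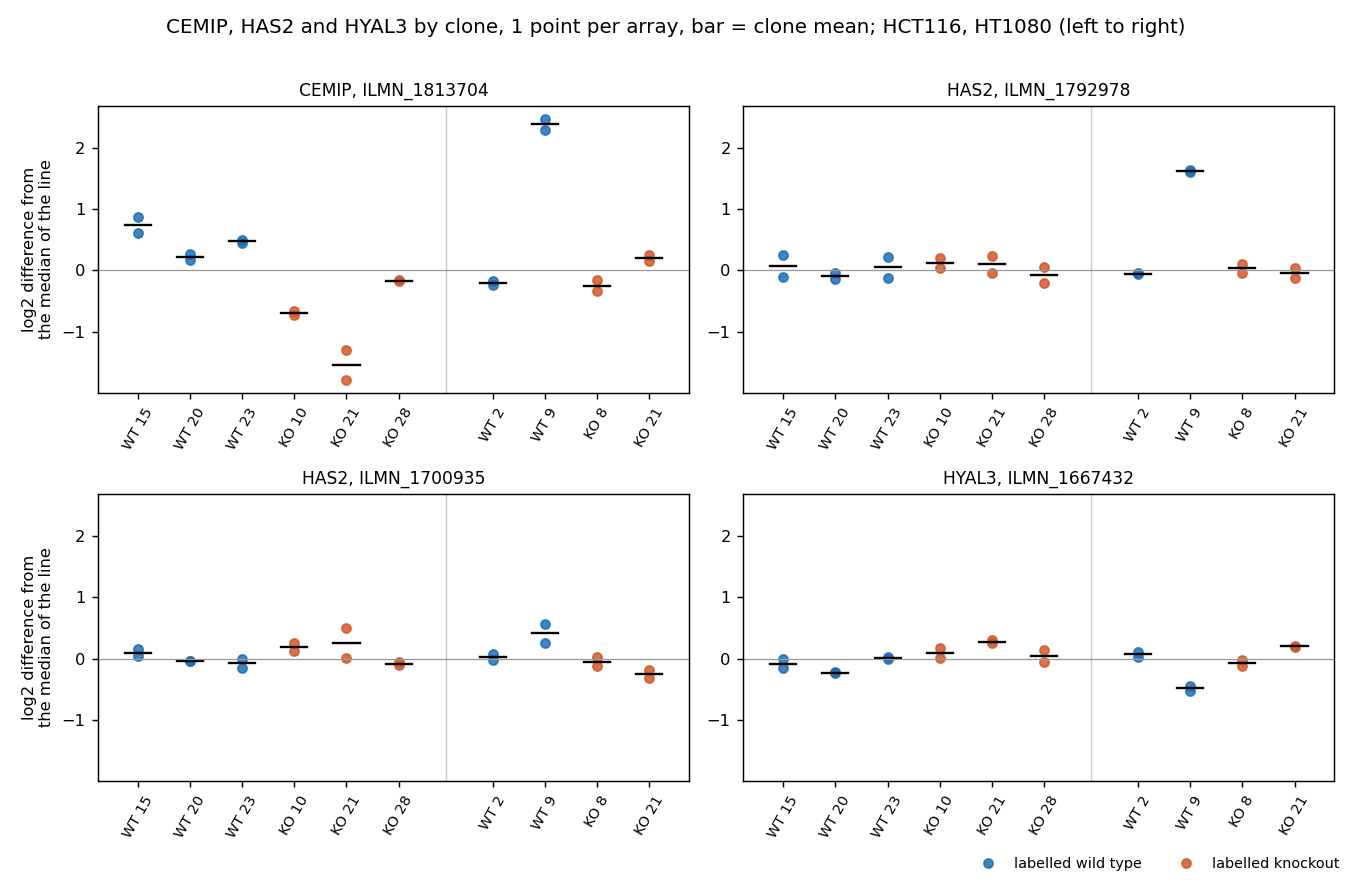
Values of CEMIP, HAS2 (2 of its 4 probes) and HYAL3 (vertical axis, log2 difference from the median of the line) in each array (points) of each HCT116 and HT1080 clone; bars are clone means and colours the labelled genotype. CEMIP is lower in all 3 HCT116 clones labelled knockout, and HT1080 wild-type clone 9 stands at 2.38 for CEMIP, 1.62 for HAS2 on ILMN_1792978 and -0.48 for HYAL3.

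The hyaluronidases differed little. HYAL3, a hyaluronidase family member whose own activity is less well established, stood at -0.081, -0.23 and 0.0095 in HCT116 wild-type clones and at 0.093, 0.27 and 0.038 in the clones labelled knockout, a difference of 0.23 ± 0.10 (limma, adjusted p = 0.591). In HT1080 it stood at 0.066 and -0.48 in wild-type clones 2 and 9 and at -0.068 and 0.20 in knockout clones 8 and 21, a difference of 0.27 ± 0.20 (limma, adjusted p = 0.864) that was -0.0017 without wild-type clone 9. The spread among HT1080 clones of one genotype was larger than that between arrays (SD 0.31 against 0.054; limma F-test, adjusted p = 0.00552), a call lost without either wild-type clone. The 3 probes of HYAL2 gave -0.19, -0.10 and 0.066 in HCT116 and -0.16, -0.086 and 0.15 in HT1080. In both lines 2 of the 3 HYAL2 probes were lower and the same probe, ILMN_1713840, was higher, and none passed (limma, adjusted p between 0.591 and 0.896).

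HYAL3, HYAL1 and HYAL2 lie close together on chromosome 3 in the RefSeq gene order. Of the 10 protein-coding genes nearest to HYAL2, HYAL3 and HYAL1 among them, 7 were measured by 10 probes, and their differences ran from -0.14 to 0.23 in HCT116 and from -0.14 to 0.27 in HT1080, none past the threshold. HAS3 lies on chromosome 16, as does TERF2IP. Of its 10 nearest protein-coding genes 8 were measured by 10 probes, with a median difference of 0.064 in HCT116 (range -0.20 to 0.091) and 0.057 in HT1080 (range -0.16 to 0.88). The neighbour at 0.88 was the zinc finger gene ZFP90 in HT1080, whose difference in HCT116 was 0.0024. None of the 10 probes passed in either line, and none had clones labelled knockout wholly apart from wild type in HCT116. In HT1080, 3 of the 10 (ZFP90, UTP4 and VPS4A) were higher and 1 (SMPD3) lower in both knockout clones than in both wild-type clones, as were 11.7% and 25.3% of all probes.

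CD44, the receptor, had differences of opposite sign in the 2 lines, none past the threshold. On ILMN_2348788 the HCT116 wild-type clones 15, 20 and 23 stood at -0.087, -0.056 and -0.16 and the clones labelled knockout 10, 21 and 28 at 0.53, 0.27 and 0.024, a difference of 0.37 ± 0.12 (limma, adjusted p = 0.591). On ILMN_1803429 they stood at -0.087, -0.076 and -0.043 and at 0.33, 0.25 and 0.0042, a difference of 0.26 ± 0.10 (limma, adjusted p = 0.591). On both probes the order among clones labelled knockout was 10, 21 and 28, and clone 28 lay close to wild type. ILMN_1778625 gave 0.21 ± 0.11, less than its SD of 0.24 between the arrays of a clone.

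In HT1080 the same 3 CD44 probes gave -0.20 ± 0.17, -0.25 ± 0.12 and -0.30 ± 0.18 (limma, adjusted p between 0.864 and 0.876), and wild-type clone 2 was highest on each. It stood at 0.32, 0.29 and 0.51, against -0.088, 0.046 and -0.024 in wild-type clone 9, -0.22, -0.14 and -0.069 in knockout clone 8 and 0.056, -0.030 and -0.039 in knockout clone 21. The difference of ILMN_2348788 was 0.0057 without wild-type clone 2. Clones of one genotype differed on ILMN_2348788 in HCT116 and HT1080 (limma F-test, adjusted p = 0.0419 and 0.0371) and on ILMN_1778625 in HT1080 (adjusted p = 0.0297). The HCT116 call was lost after median centring of the arrays (adjusted p = 0.0851), with quantile normalization (adjusted p = 0.195), with probes of low variance left out (adjusted p = 0.0509) and without knockout clone 10 (adjusted p = 0.478) or 28 (adjusted p = 0.399), and the HT1080 calls were lost without either wild-type clone. The call of ILMN_2348788 in HT1080 was lost without knockout clone 8 (adjusted p = 0.0524) or 21 (adjusted p = 0.0645) too. The annotation ties the 3 probes to different transcripts of the gene, but which exons they read was not examined here.

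**Figure D3:**
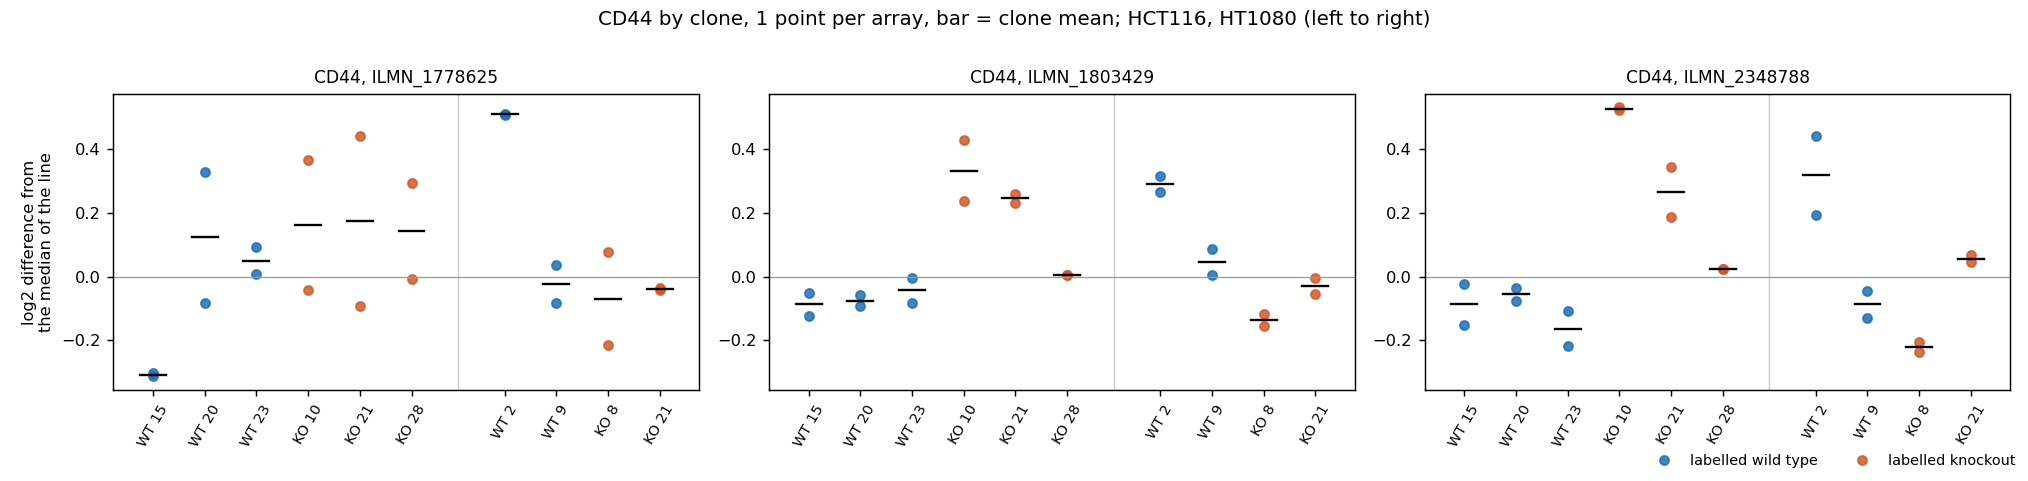
Values of the 3 CD44 probes (vertical axis, log2 difference from the median of the line) in each array (points) of each HCT116 and HT1080 clone; bars are clone means and colours the labelled genotype. On ILMN_2348788 and ILMN_1803429 HCT116 knockout clone 10 is highest (0.53 and 0.33), and in HT1080 wild-type clone 2 is highest on all 3 probes.

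UGDH, which supplies the UDP-glucuronic acid for the synthases, stood at 0.24, -0.054 and 0.050 in HCT116 wild-type clones 15, 20 and 23 and at -0.23, -0.43 and 0.12 in the clones labelled knockout 10, 21 and 28. The groups overlapped, with a difference of -0.26 ± 0.14 (limma, adjusted p = 0.609). Clones of one genotype differed (SD 0.23 against 0.079 between arrays; limma F-test, adjusted p = 0.0106), a call lost without knockout clone 28 (adjusted p = 0.217). In HT1080 the wild-type clones stood at -0.13 and -0.047 and the knockout clones at 0.00 and 0.19, a difference of 0.18 ± 0.11 (limma, adjusted p = 0.864).

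Of the 13 probes of genes other than HAS3, 0 passed in HCT116, where 0.0317% of all probes passed, and 0 in HT1080, where 0.00423% did (limma, adjusted p under 0.05). An unadjusted p under 0.05 was reached by 6 of the 13 in HCT116, against 8.32% of all probes, and by 0 in HT1080, against 5.08%. In HCT116 all clones labelled knockout were above all wild-type clones for 7 member probes, of HAS2, HAS3, HYAL3 and CD44, where 13.1% of all probes were, and below for 3, of CEMIP and HYAL2, where 2.58% were. After median centring of the arrays the member probes numbered 5 and 3, against 7.26% and 4.72% of all probes, and with quantile normalization 5 and 3, against 6.49% and 5.13%, scalings chosen for this count after seeing the data. In HT1080 the count was 4 above, of HAS3, HYAL2 and UGDH, and 4 below, of HAS2 and CD44, where 11.7% and 25.3% of all probes were. These were 4 and 3 with array centring, against 14.9% and 20.5%, and 4 and 3 with quantile normalization, against 16.2% and 18.5%. Because this comparison was used to choose HAS3, nothing is read from these counts.

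For none of the 13 probes of genes other than HAS3 did the change differ between HCT116 and HT1080 past the threshold, where it did for 0.0296% of all probes (limma interaction). Outside HAS3, 4 probes had an unadjusted p under 0.05, where 9.83% of all probes did. They were the 3 CD44 probes, whose change in HCT116 exceeded that in HT1080 by 0.57 ± 0.22, 0.51 ± 0.16 and 0.50 ± 0.22, and ILMN_1700935 of HAS2, by 0.50 ± 0.19 (adjusted p between 0.478 and 0.504). ILMN_1792978 of HAS2 differed by 0.83 ± 0.48 (adjusted p = 0.562), by 1.67 without HT1080 wild-type clone 2 (adjusted p = 0.00137) and by -0.0076 without wild-type clone 9, when the lone HT1080 wild-type clone is assumed to vary like the other groups.

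**Figure D4:**
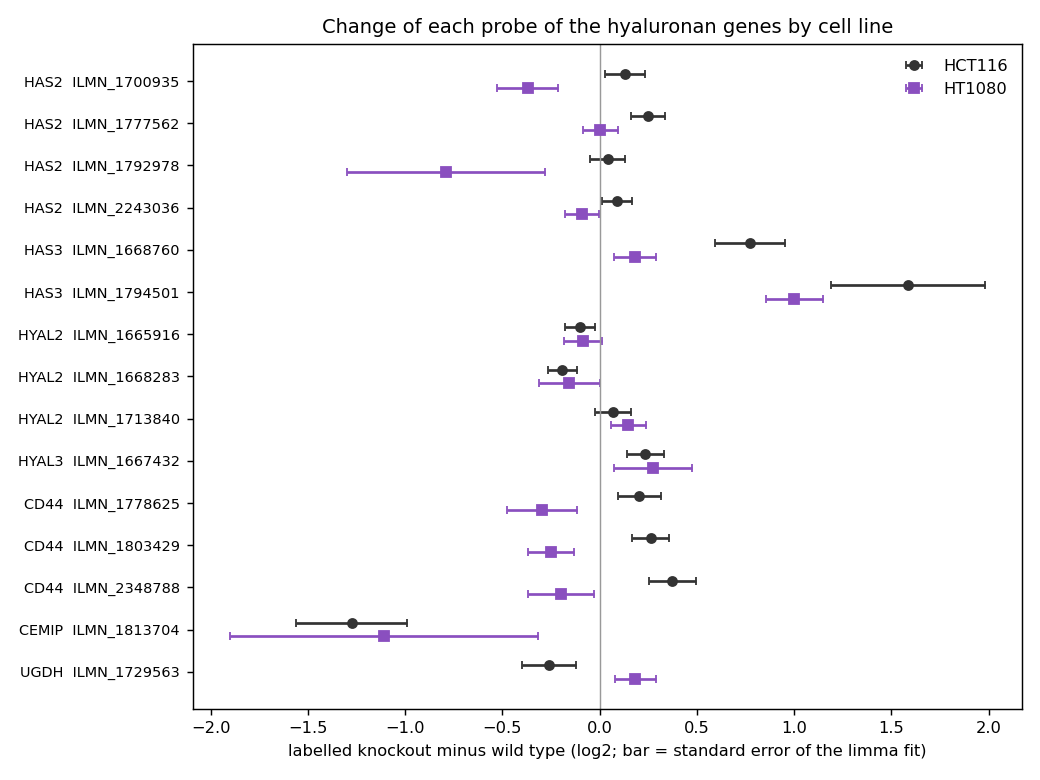
Difference of labelled knockout minus wild type (horizontal axis, log2) of each of the 15 probes in HCT116 (circles, 3 and 3 clones) and HT1080 (squares, 2 and 2 clones); bars are standard errors of the limma fit. HAS3 lies to the right in both lines, CEMIP to the left with a wide bar in HT1080 (-1.11 ± 0.79), and the CD44 probes on opposite sides.

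Clones of one labelled genotype differed for 5 of 15 member probes in HCT116, both of HAS3 and those of CEMIP, UGDH and CD44, where 10.5% of all probes did. They differed for 5 of 15 in HT1080, of HAS2, HYAL3, CD44 (2 probes) and CEMIP, where 8.74% of all probes did (limma F-test, adjusted p under 0.05). The HT1080 count was 0 on leaving out either wild-type clone. The difference between genotypes of HAS3 on ILMN_1794501 was 2.14 times the SD between clones of a genotype in HCT116 and 4.95 times in HT1080. On its other probe, ILMN_1668760, it was 2.47 and 1.65 times, and for CEMIP it was 2.44 and 0.84 times. The largest ratio in HCT116 was 3.87, for ILMN_1668283 of HYAL2. HAS3 was chosen on this difference, so nothing is read from its ratios.

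**Figure D5:**
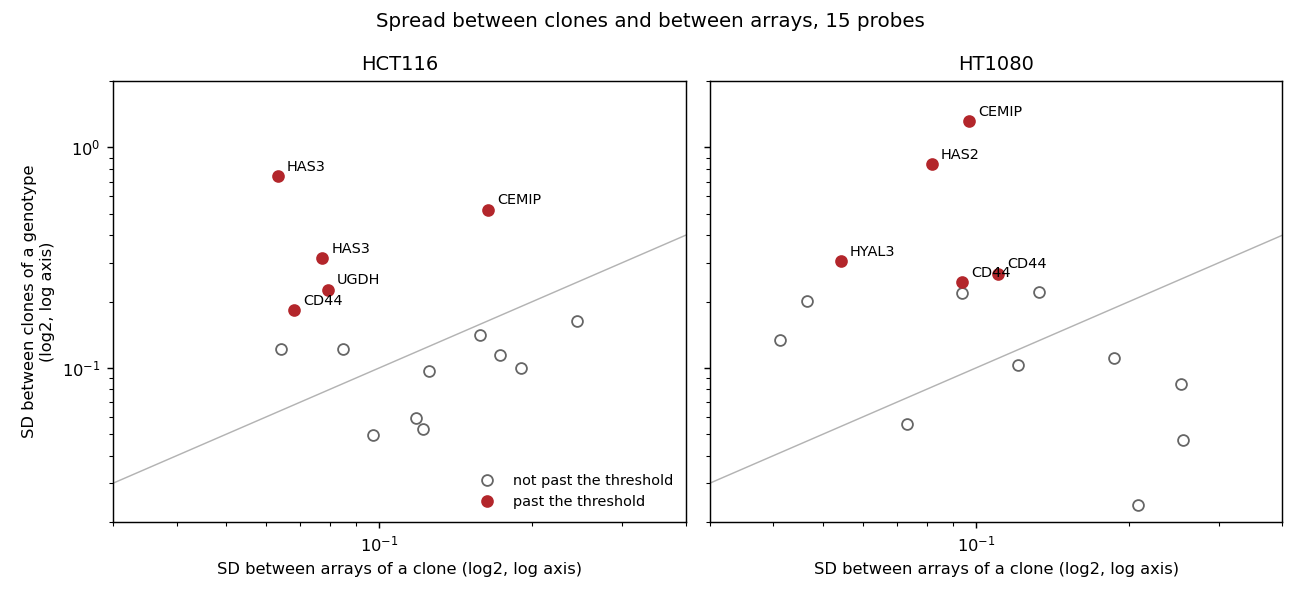
SD between clones of one genotype (vertical log axis, log2 values) against SD between the 2 arrays of a clone (horizontal log axis) for the 15 probes in HCT116 (left) and HT1080 (right); the line marks equal SDs and filled points passed the limma F-test among clones of one genotype. CEMIP in HT1080 (1.32 against 0.097) and HAS3 in HCT116 (0.74 against 0.063) lie farthest above the line in vertical position.

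The genes whose clone values were most like those of HAS3 on ILMN_1794501, by Pearson correlation over the 10 clones of HCT116 and HT1080 after centring each line, were NAPRT (0.99), which encodes nicotinate phosphoribosyltransferase, the homeobox gene LHX5 (0.95), ABCC8 (0.93), which encodes a subunit of an ATP-sensitive potassium channel, ERC2-IT1 (0.91) and SLC19A2 (0.91), which encodes a thiamine transporter. Their differences between genotypes were small beside that of HAS3, 0.20 to 0.26 in HCT116 and 0.039 to 0.17 in HT1080. They were the highest among 15055 probes, those with 1 gene symbol and a variance over clones at or above the median of such probes. Arrays and clones are shared by all points. Genotypes were not centred, so all correlations given here hold the difference for which HAS3 was chosen, and nothing is read from them. The clone values of NAPRT ran only from -0.17 to 0.24. Over the same 10 clones the other HAS3 probe had a correlation of 0.96, the CD44 probes -0.041, 0.38 and 0.58, CEMIP -0.43, UGDH -0.18, HYAL3 0.39 and TERF2IP -0.58 with that probe. The correlation was -0.11, 0.022, 0.073 and 0.66 for the HAS2 probes and -0.47, -0.44 and 0.13 for the HYAL2 probes.

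Further genes of hyaluronan biology were described from lists. Of the genes that make the UDP-sugar precursors, UGDH included, 10 of 12 were measured by 17 probes. In HCT116 11 probes were higher and 6 lower, with a median of 0.060 against 0.056 over all probes, and in HT1080 15 were higher and 2 lower, with a median of 0.14 against -0.037. No probe passed in either line. Non-overlapping genes with the largest differences were PGM1, a phosphoglucomutase (0.32 ± 0.13), and UGP2, which makes UDP-glucose (0.27 ± 0.08, and 0.095 to 0.28 over its 5 probes), in HCT116. In HT1080 they were OGT, which uses UDP-N-acetylglucosamine (0.26 ± 0.09), and the hexosamine pathway genes GNPNAT1 (0.22 ± 0.10) and UAP1 (0.19 ± 0.09).

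Among other breakdown genes, 5 of 7 were measured by 6 probes, with 4 higher and 2 lower in HCT116 and 2 and 4 in HT1080. Only HEXA, a lysosomal hexosaminidase subunit, had no overlap, at -0.074 ± 0.095 in HT1080. The 7 other receptor and uptake genes had 9 probes, 6 higher and 3 lower in HCT116 and 4 and 5 in HT1080. Their mean was 0.066, -0.0042 and -0.057 in HCT116 wild-type clones 15, 20 and 23. It was -0.52, 0.048 and -0.19 in clones labelled knockout 10, 21 and 28. The median difference between genotypes over the 9 probes was 0.036 in HCT116, against 0.056 over all probes. Which probes set the low mean of clone 10 is not shown here. Among clones of one genotype 2 of the 9 probes differed in each line, where 10.5% and 8.74% of all probes did (limma F-test, adjusted p under 0.05). The genes named next are those without overlap. TLR4 stood at 0.14 ± 0.08 in HCT116, and in HT1080 the hyaluronan receptor LAYN stood at -0.43 ± 0.20, HMMR, which binds hyaluronan and the mitotic spindle, at 0.26 ± 0.12 and LYVE1 at -0.19 ± 0.09.

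Of the 18 genes of hyaluronan-binding matrix proteins, measured by 28 probes, 19 probes were higher and 9 lower in HCT116 and 9 and 19 in HT1080, with medians of 0.045 and -0.060. The proteoglycan gene BCAN stood at 0.32 ± 0.08 in HCT116, but its other 2 probes gave -0.079 and -0.13. In HT1080 the link protein gene HAPLN3 stood at 0.30 ± 0.13, HABP2 at -0.20 ± 0.11 and ITIH4 at -0.17 ± 0.10. Of the linkers, splicing factors and proteases that act on CD44, 13 of 14 genes were measured by 19 probes. In HCT116 13 probes were higher and 6 lower, with a median of 0.055 against 0.056 over all probes. In HT1080 5 were higher and 14 lower, with a median of -0.056 against -0.037. RDX, which ties CD44 to actin, stood at 0.23 ± 0.08 in HCT116, the sheddase gene ADAM17 at 0.18 ± 0.08 (0.055 and -0.12 on its other probes) and the splicing factor gene ESRP2 at 0.17 ± 0.08. In HT1080 the gelatinase gene MMP9, whose protein docks on CD44, stood at -0.80 ± 0.12, ESRP1 at -0.14 ± 0.09 and the splicing factor gene SRSF1 at 0.12 ± 0.10. No probe of these lists passed in either line (limma, adjusted p between 0.498 and 0.907 for the genes named).

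Epithelial markers differed among HCT116 clones. Of 19 probes for 14 epithelial genes, 13 differed among clones of one genotype in HCT116, where 10.5% of all probes did. There 18 had higher means in the clones labelled knockout and 1 a lower one, and 0 passed between genotypes. Their median difference was 0.16, against 0.056 over all probes. The mean of the list was 0.14, -0.42 and -0.11 in wild-type clones 15, 20 and 23. It was 0.30, -0.26 and 0.15 in clones labelled knockout 10, 21 and 28, so the genotypes overlapped. Clone 10, highest on both HAS3 probes and on 2 of the 3 CD44 probes, was highest here too. Other clones went otherwise. Knockout clone 21, above all wild-type clones on both HAS3 probes, lay below wild-type clones 15 and 23 here. The lowest was wild-type clone 20, whereas wild-type clone 23 was lowest on both HAS3 probes. The mean of 21 probes for 14 mesenchymal genes was -0.068, 0.21 and 0.025 in wild type and -0.022, 0.080 and -0.32 in labelled knockout. Of these 21 probes, 7 differed among clones of one genotype in HCT116 and 11 in HT1080, where 8.74% of all probes did. In HT1080 6 epithelial probes were higher and 13 lower in knockout, with a median difference of -0.087 against -0.037 over all probes. The epithelial means of the HT1080 clones ran from -0.047 to 0.026. The mesenchymal ones were -0.025 and 0.041 in wild-type clones 2 and 9 and -0.16 and 0.16 in knockout clones 8 and 21. Their part in the values of HAS3, CEMIP and CD44 was not tested.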

How the data were processed

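Total RNA had been extracted on QIAGEN RNeasy columns and biotin-labelled with an Ambion MessageAmp kit, per the labels. The deposited table holds log2 values of 47323 probes on 24 arrays of 14 clones or cultures; the log base was assumed, and background correction, normalization and software are not given in the sources used here. Each probe's median over the arrays of a line was 0 to within 5e-07, so signal over background is unknown, and the number of arrays limits the precision. In ARPE-19, 4 probes had missing values and were left out.

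Probes were named from the platform annotation: 30113 had 1 gene symbol, 8 several and 17202 none. Symbols of 30074 probes were taken from RefSeq (GRCh38.p14) through the Entrez identifier, whether or not they changed. RefSeq was used for names, gene order and promoters.

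Labelled knockout and wild type were compared within each line by limma 3.58.1 in R 4.3.3 (lmFit and eBayes on clone means, two-sided, Benjamini-Hochberg over all probes, threshold 0.05), and between HCT116 and HT1080 by the interaction. Clones of one genotype were compared on single arrays by a moderated F-test. P-values of arrays measure only the spread between arrays, which may be technical. The fits were tested on simulated data. The members, gene lists and tests were chosen with earlier results of these data known. All member probes, the targeted gene, up to 3 non-overlapping genes per list and line, the 5 genes most like HAS3 and the 5 protein-coding neighbours on each side were eligible for naming. Alternatives covered array centring, quantile normalization, a variance filter, named probes alone, the mean of a gene's probes and a robust prior. Others were single arrays and leaving out each clone. A further one, the block fit, had array number as a covariate and, between genotypes, the clone as a correlated block.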

Additional observations from a re-analysis of the deposited data

Results flagged for a closer look

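CD44 had 2 probes whose genotypes did not overlap and lay in opposite order in the 2 lines. All clones labelled knockout were higher in HCT116, as on 13.1% of all probes, and lower in HT1080, as on 25.3%. The share of all probes with both patterns was not counted. On ILMN_1778625 in HT1080 wild-type clone 9 (-0.024) and knockout clone 21 (-0.039) lay close together, and its arrays overlapped between the genotypes. In HCT116 wild-type clone 20 (0.12) and knockout clone 28 (0.14) lay close together on this probe, and its arrays overlapped there too. The change in HCT116 minus that in HT1080 was 0.50 for ILMN_1778625 and 0.51 for ILMN_1803429. The interaction did not pass for either (limma, adjusted p = 0.504 and 0.478). After median centring of the arrays or quantile normalization, ILMN_1803429 stayed without overlap in both lines and ILMN_1778625 did so in neither.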

How the results depend on the processing

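No member probe passed between genotypes in HCT116 or HT1080 in the fits without the block, except on leaving out clones: the HCT116 count stayed at 0 and the HT1080 count ran from 0 to 2, with 2 (CEMIP and HAS2) without wild-type clone 2. The interaction count ran from 0 to 1 over left-out clones. The block fit took single arrays as units, the clone as a correlated block and array number as a covariate. In it 3 member probes passed in HCT116 and 1 in HT1080, of which CEMIP in HCT116 alone is not a HAS3 probe. Nothing is read from HAS3, chosen on this comparison. The block called 221 and 89 of all probes, against 15 and 2. Differences between arrays 1 and 2 correlated over 0.1 in 2 of 15 pairs of HCT116 clones and 1 of 6 in HT1080. The correlations ran from -0.16 to 0.15 in HCT116 and from -0.042 to 0.12 in HT1080. They cannot tell whether arrays of the same number were handled together. ARPE-19 kept 0 throughout. The count among clones of one genotype was 5 in HCT116, 3 after averaging each gene's probes, which tests fewer features, and 3 to 5 without single clones; in HT1080 it was 5, and 0 to 4 without single clones, but 6 with median centring or quantile normalization, each of which added ILMN_1668283 of HYAL2 (adjusted p = 0.0421 and 0.0363), and 7 with only probes of 1 gene symbol, which added that probe (0.0397) and HAS3. The HAS3 difference ran from 1.08 (without knockout clone 10) to 1.90 in HCT116 and from 0.59 (mean of both probes) to 1.17 in HT1080. Leaving out a clone could not reverse its sign, because the genotypes did not overlap. HAS3 was chosen on this difference, so nothing is read from the kept sign. HAS2 probe ILMN_2243036 in HT1080 (-0.091) was 0.078 with second arrays alone, and 5 other values changed sign on leaving out a clone: ILMN_1792978 of HAS2 in HT1080 (range -1.63 to 0.048) and between the lines (-0.0076 to 1.67), HYAL3 (-0.0017 to 0.55), CEMIP (-2.41 to 0.19) and ILMN_2348788 of CD44 (-0.40 to 0.0057) in HT1080; the cause was not tested. Counts over all probes ranged from 0 to 221 in HCT116, 0 to 121 in HT1080, 27 to 430 in ARPE-19 (139), 9 to 219 for the interaction (14), and 3217 to 5652 (4981) and 1091 to 4474 (4138) among clones of one genotype.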
